A study of Mus musculus with 9 samples.

Results

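The first week on a high protein diet was described from 4 pools of mouse liver RNA: LF-HP and HF-HP were set against LF-NP and HF-NP, each HP pool against the NP pool with equal fat. These are all pools of 1 week, 4 of the 9 in the series, and no measured value was used to choose them. LF and HF stand for low and high fat, with 10 and 35% of energy, NP and HP for normal and high protein, with 15 and 50% of energy. Carbohydrate makes up the rest, 75% in LF-NP, 50% in HF-NP, 40% in LF-HP and 15% in HF-HP, so that every HP diet is also a diet with less starch and sucrose. The animals were male C57BL/6J wild type mice, which had all been on LF-NP during a run-in period. After it, 1 reference pool was taken (week 0) and the diets were then fed for 1 week or, in 4 further pools, for 12 weeks. The labels give an age of 12 weeks for the reference pool, 13 weeks for the pools of 1 week and 22 weeks for those of 12 weeks, the last being less than the age of the reference plus the time on the diet. Every pool holds RNA of 5 mice, taken after a calibrated meal in the dark phase, and was hybridised to 1 Affymetrix Mouse Gene 1.0 ST array. Because each diet and week is 1 pool, the spread between mice is not seen, and the errors given measure how much pools deviate from an additive model.

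Amino acids that exceed the needs of protein synthesis are broken down mainly in the liver, where transaminases and dehydrogenases move their carbon into the TCA cycle and glucose and their nitrogen into urea. Sugar works in the other direction on a largely separate set of genes: through ChREBP and through insulin and SREBP-1c it raises pyruvate kinase, fructose metabolism and fatty acid synthesis. A liver in the first days of a diet rich in protein and poor in carbohydrate is therefore known for a shift from sugar use and lipogenesis towards amino acid use and gluconeogenesis.

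The values are log2 RMA values of 19938 genes, where a difference of 1 is 2-fold. Several pools were often listed with exactly the same value, so that the matched difference was exactly 0 for 8.4% of genes on LF and 8.82% on HF diets, and counts of genes higher or lower in both comparisons leave these out. The correlation between the 4 arrays of 1 week lay between 0.992 and 0.993. Hepatocyte markers were high in all of them, with a log2 summed level of 15.89 to 15.99, and Alb was at 13.72 in LF-NP and 13.88 in HF-NP against 13.84 in LF-HP and 13.78 in HF-HP. The summed level of 6 Kupffer cell markers was 10.76 in LF-NP, 10.32 in LF-HP, 10.69 in HF-NP and 11.05 in HF-HP, so that 0 of the 6 markers had the same direction in both matched comparisons. Neutrophil markers lay between 6.51 and 6.58 as a summed level and adipocyte, pancreas and muscle markers were likewise low. Of the 2 erythroid markers measured, Alas2 was at 9.74 in LF-NP and 9.75 in HF-NP against 9.16 in LF-HP and 9.24 in HF-HP. The other, Slc4a1, was neither lower in both comparisons nor higher in both. In RNA of whole tissue, fewer cells of a type cannot be told apart from less RNA per cell.

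The regulatory sequences of 3 genes that stand out in the values are shown as the 250 bases before an annotated start in RefSeq (GRCm38.p6), 5′ to 3′ on the strand of the gene, with the matches of 1 motif in capitals. Pklr has 2 starts in the promoter table, and the start with the most matches was the one taken. Pklr, the liver pyruvate kinase and the textbook target of ChREBP, is shown with the carbohydrate response element, searched on both strands as CANGNG and CNCNTG separated by 5 bases. Asns, asparagine synthetase, is shown with the C/EBP-ATF response element TGATGNAA, to which ATF4 binds when amino acids are scarce or out of balance. Mt2, metallothionein 2, is shown with the metal response element TGCNCNC.
Pklr, chr3:89136373-89136622, plus strand: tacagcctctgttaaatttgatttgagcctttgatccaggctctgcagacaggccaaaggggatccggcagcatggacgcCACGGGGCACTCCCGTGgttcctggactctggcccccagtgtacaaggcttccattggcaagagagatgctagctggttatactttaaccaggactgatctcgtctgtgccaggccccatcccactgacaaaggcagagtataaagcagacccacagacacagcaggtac
Asns, chr6:7693210-7693459, minus strand: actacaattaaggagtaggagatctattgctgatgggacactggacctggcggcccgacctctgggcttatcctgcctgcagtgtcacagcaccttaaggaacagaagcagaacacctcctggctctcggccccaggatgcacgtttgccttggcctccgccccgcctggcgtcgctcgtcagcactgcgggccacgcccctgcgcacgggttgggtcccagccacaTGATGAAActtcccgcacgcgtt
Mt2, chr8:94172368-94172617, plus strand: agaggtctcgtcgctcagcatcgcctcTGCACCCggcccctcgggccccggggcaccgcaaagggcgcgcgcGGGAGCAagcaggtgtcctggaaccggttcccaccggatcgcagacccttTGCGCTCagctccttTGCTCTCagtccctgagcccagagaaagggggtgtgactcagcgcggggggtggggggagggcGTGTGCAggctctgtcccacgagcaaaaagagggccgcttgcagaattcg
The Pklr match starts 170 bases before the start, and 0.454% of the 32851 promoters of the table hold such a match. The Asns match starts 23 bases before the start, with 3.45% of all promoters holding one. The Mt2 sequence holds 5 matches, the last of them 50 bases before the start, while 44.4% of promoters hold 1 or more and 0.344% hold 5 or more. For Mt1, the other metallothionein gene searched, the 250 bases before its 1 start in the table hold 1 match, 23 bases before that start. Bases after that start were not searched, so the number of such elements at Mt1 is not given by this. Matches overlapping another motif were not removed, and a match is a string of letters and not a measured site.

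No single gene passed the test at 1 week. In limma, with the HP minus NP difference at 1 week as 1 term among those of week, fat and the HP difference at 12 weeks, 0 of 19938 genes (0%) had an adjusted p under 0.05, and the lowest adjusted p was 0.107, for Gask1a. At an unadjusted p under 0.05 there were 486 genes with higher values on HP diets (2.44%) and 624 with lower values (3.13%). Other settings gave between 0 and 5 genes past the threshold, and Gask1a, Serpina12, Trim7, Nnmt, Slc1a4 and Orm2 are all that passed in any of them. A permutation of 2 pools against 2 cannot go below an exact two-sided p of 0.333, so none is given for single genes. What follows are therefore values and differences of pools, and higher and lower refer to those values only.

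To see which genes differed in the same way on both fat levels, the matched differences were set side by side. Both were at or above 0.5 (1.41-fold) for 69 genes (0.346% of those measured) and both at or below -0.5 for 56 genes (0.281%). On LF diets alone, 248 genes reached 0.5 and 265 reached -0.5, and on HF diets 387 and 251. Thus 27.8% of the genes with higher values on the LF-HP diet also had them on HF-HP, and 17.8% the other way round, and the shares for lower values were 21.1 and 22.3%. Differences of this size with opposite signs were seen for 6 genes that were higher on LF-HP and lower on HF-HP and for 15 with the reverse. Set the same way, dietary fat reached 0.5 in both protein levels for 11 genes and -0.5 for 7. The LF-NP pool of 1 week and the reference pool, which had the same diet, differed by 0.5 or more for 123 genes and by -0.5 or less for 126, which shows how far pools of 1 diet lay apart. Just inside the size were Lacc1, with 0.50 on LF and 0.63 on HF diets, and Gna14, with -0.52 on LF and -0.50 on HF diets. Across all genes, the correlation between the matched differences was 0.244, as a description of genes that are not independent.

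**Figure D1:**
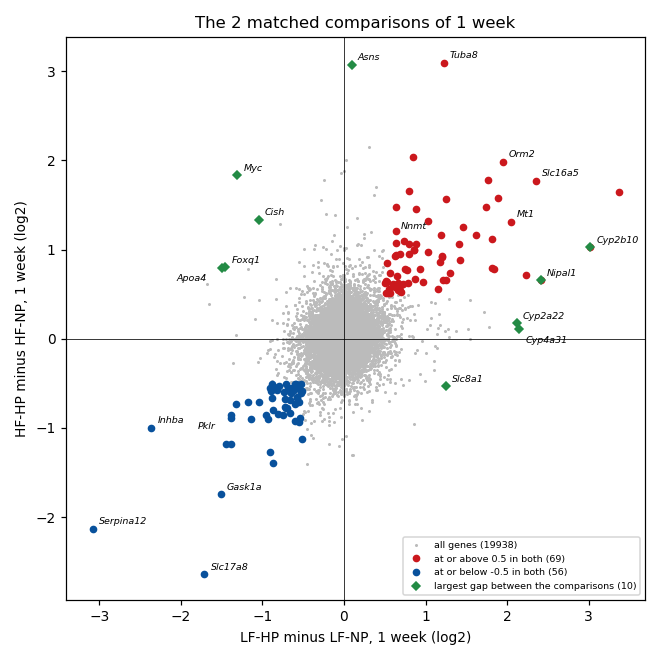
Each point is 1 of 19938 genes, with the LF-HP minus LF-NP difference on the x axis and the HF-HP minus HF-NP difference on the y axis, both in log2 units at 1 week. Red and blue points are the 69 and 56 genes past 0.5 in the same direction in both; green diamonds are the 10 genes with the largest gap between the comparisons, of which Asns and Myc lie high on the y axis only.

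Of the 69 genes with higher values, the reference pool lay nearer to the mean of the NP pools for 61 and nearer to the HP pools for 8. Of the 56 genes with lower values it lay nearer to NP for 47 and nearer to HP for 9. For most of these genes the reference, itself a pool on LF-NP, thus lay nearer to the NP pools than to the HP pools, which also had less carbohydrate. The same count over all genes was not made, so the counts are not read as particular to these genes. HP and NP pools did not overlap for 68 of the 69 and for all 56. The size of both matched differences makes this likely, although it sets no limit on pools of unequal fat. Over all genes measured, both HP pools lay above both NP pools for 14.7% and below them for 18.1%.

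The genes with higher values were ranked by the smaller of the matched differences. Orm2, an acute phase glycoprotein, stood first and was at 7.80 in LF-NP and 7.49 in HF-NP against 9.75 in LF-HP and 9.48 in HF-HP. Its mean difference was 1.96 ± 0.33 (SE, adjusted p = 0.283), the same on both fat levels with 1.95 on LF and 1.98 on HF diets. The reference pool, at 9.72, was at the level of the HP and not of the NP pools, so that here the NP pools stand apart, and the difference between HP and reference pools was -0.11. Lcn2, the iron-siderophore binding lipocalin 2, had the same form, with 8.11 in LF-NP and 7.57 in HF-NP against 9.88 in LF-HP and 9.34 in HF-HP and 9.41 in the reference pool. Mt1 and Mt2, the zinc and copper binding metallothioneins, lie next to each other in the genome and were at 8.64 in LF-NP and 8.10 in HF-NP against 10.69 in LF-HP and 9.41 in HF-HP for Mt1 and 10.28 in LF-NP and 9.06 in HF-NP against 12.17 in LF-HP and 10.63 in HF-HP for Mt2. Their reference values were 8.62 and 9.88, and the highest level of both was in LF-HP. The adjusted p-values of Lcn2, Mt1 and Mt2 were 0.802, 0.566 and 0.87, with standard errors of 0.61, 0.43 and 0.68. Without the LF-HP pool their differences were 1.11, 0.96 and 0.84 in place of 1.77, 1.68 and 1.73. Lcn2 is also a product of neutrophils, whose markers were low in all 4 pools, with S100a8 at 3.52 in LF-NP and 3.52 in HF-NP against 3.38 in LF-HP and 3.52 in HF-HP. These S100a8 values lie below the array medians, where a change may go unseen. The part of neutrophils in the Lcn2 difference was not tested.

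Acmsd, which steers tryptophan away from NAD synthesis towards complete oxidation, was at 8.40 in LF-NP and 8.80 in HF-NP against 10.14 in LF-HP and 10.28 in HF-HP, a mean difference of 1.61 ± 0.24 (adjusted p = 0.257). Nnmt, which methylates nicotinamide with S-adenosylmethionine, was at 11.16 in LF-NP and 11.17 in HF-NP against 12.34 in LF-HP and 12.33 in HF-HP. The Nnmt pools of 1 protein level were nearly equal, and the mean difference was 1.17 ± 0.12 (adjusted p = 0.16). Ppargc1a, the PGC-1alpha coactivator of gluconeogenesis and mitochondrial genes, was at 7.90 in LF-NP and 7.90 in HF-NP against 9.15 in LF-HP and 9.47 in HF-HP. Another probe set of Ppargc1a gave 1.28 and 1.60 for the matched differences, close to 1.25 and 1.56. Cyp17a1, the steroid 17-alpha-hydroxylase, was at 8.82 in LF-NP and 8.97 in HF-NP against 10.28 in LF-HP and 10.22 in HF-HP. The reference pool lay nearer to NP for each of these 4 genes, with 8.82, 11.17, 8.48 and 9.22.

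The others of the 12 were Slc16a5, a monocarboxylate transporter and second by that rank, with 6.91 in LF-NP and 7.32 in HF-NP against 9.26 in LF-HP and 9.09 in HF-HP and the second largest mean difference of this group (2.06 ± 0.28, 4.17-fold, adjusted p = 0.254). Tuba8, an alpha-tubulin, had the largest, 2.16 ± 0.58. It was at 6.40 in LF-NP and 6.07 in HF-NP against 7.62 in LF-HP and 9.16 in HF-HP, so that its matched differences were uneven with 1.22 on LF and 3.09 on HF diets. Chil1, a chitinase-like protein, was at 4.78 in LF-NP and 4.71 in HF-NP against 6.39 in LF-HP and 5.87 in HF-HP, and Sftpa1, the surfactant protein A1, at 6.50 in LF-NP and 6.61 in HF-NP against 8.31 in LF-HP and 7.72 in HF-HP. Their mean differences were 1.39 ± 0.24 and 1.47 ± 0.27. The transcribed pseudogene Rdh18-ps, chosen after its values were seen, had a larger mean difference than any of the 12, at 4.33 in LF-NP and 5.62 in HF-NP against 7.70 in LF-HP and 7.27 in HF-HP or 2.51 ± 0.42.

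Among genes with lower values, Serpina12 stood first. It encodes vaspin, a serpin found in adipose tissue and liver, and was at 8.25 in LF-NP and 7.70 in HF-NP against 5.16 in LF-HP and 5.57 in HF-HP, a mean difference of -2.61 ± 0.24 or 6.09-fold lower (adjusted p = 0.156). The NP pools, and the reference at 7.51, were all more than 1 unit above both HP pools. Slc17a8, the vesicular glutamate transporter VGLUT3, was at 8.41 in LF-NP and 9.14 in HF-NP against 6.70 in LF-HP and 6.50 in HF-HP, and Gask1a, a Golgi-associated kinase, at 7.11 in LF-NP and 7.03 in HF-NP against 5.60 in LF-HP and 5.28 in HF-HP. Gask1a had the smallest error for its size, -1.63 ± 0.12, and thereby the lowest adjusted p of all genes. Inhba, which encodes the activin A subunit, was at 8.74 in LF-NP and 8.05 in HF-NP against 6.37 in LF-HP and 7.05 in HF-HP, with the larger part of the difference on LF diets. Inhbe, the hepatokine activin E subunit, was also lower, at 9.61 in LF-NP and 9.88 in HF-NP against 8.87 in LF-HP and 9.27 in HF-HP.

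Several of the 12 are transporters and enzymes of hepatocytes. Slc22a7, the organic anion transporter OAT2, was at 9.16 in LF-NP and 9.10 in HF-NP against 7.77 in LF-HP and 7.92 in HF-HP. Aqp8, a water and ammonia channel, was at 8.85 in LF-NP and 8.90 in HF-NP against 7.70 in LF-HP and 8.00 in HF-HP. Hsd3b5, a 3-ketosteroid reductase typical of male mouse liver, was at 10.68 in LF-NP and 10.85 in HF-NP against 9.23 in LF-HP and 9.67 in HF-HP, and Selenbp2, a selenium-binding protein, at 11.76 in LF-NP and 12.17 in HF-NP against 10.83 in LF-HP and 11.26 in HF-HP. The mean differences of Slc22a7, Aqp8, Hsd3b5 and Selenbp2 were -1.28 ± 0.19, -1.02 ± 0.17, -1.31 ± 0.21 and -0.92 ± 0.13. Osgin1, a target of NRF2, was at 9.87 in LF-NP and 9.60 in HF-NP against 8.49 in LF-HP and 8.71 in HF-HP, with -1.14 ± 0.14 (adjusted p = 0.231). The other 3, Pklr, Rgs16, a regulator of G protein signalling, and Arrdc3, an alpha-arrestin, are known to respond to glucose or feeding. Rgs16 was at 9.41 in LF-NP and 8.65 in HF-NP against 8.54 in LF-HP and 7.26 in HF-HP, so that LF-HP (8.54) was not far from HF-NP (8.65), and Arrdc3 was at 9.50 in LF-NP and 9.19 in HF-NP against 8.59 in LF-HP and 7.92 in HF-HP. The Arrdc3 reference, at 8.48, was nearer to the HP pools, whose mean differed from it by -0.22, so that, as for Orm2 and Lcn2, the NP pools stand apart.

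**Figure D2:**
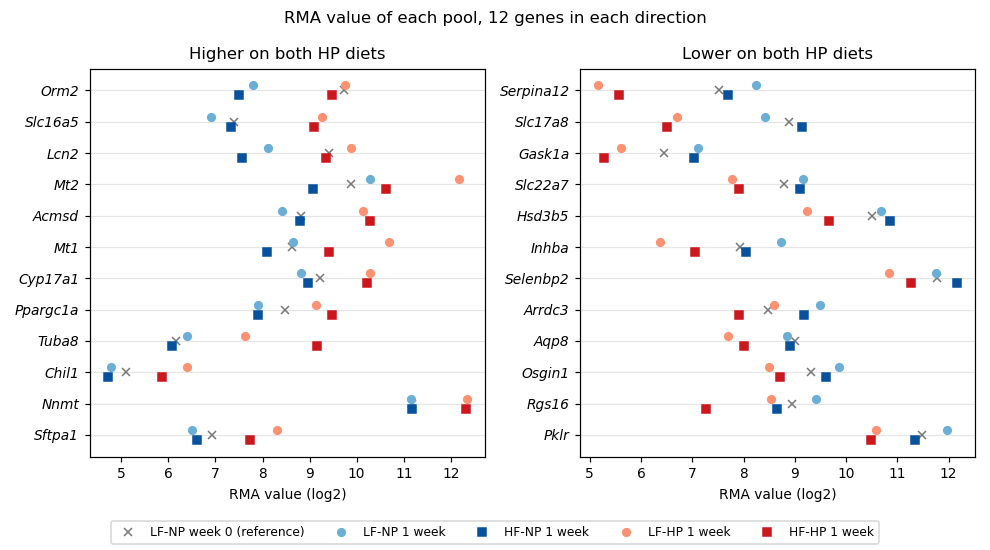
RMA values (log2, x axis) of the 12 genes with the largest higher and the 12 with the largest lower values on both HP diets, 1 point per pool of 1 week and a cross for the reference pool of week 0. Blue NP and red HP points do not overlap in any of the 24 genes, which were chosen by the size of both matched differences, and come closest in Rgs16, with 8.54 in LF-HP and 8.65 in HF-NP.

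The enzymes that bring sugar into glycolysis and lipogenesis had lower values together. Pklr was at 11.96 in LF-NP and 11.35 in HF-NP against 10.58 in LF-HP and 10.50 in HF-HP, against 11.47 in the reference pool, with a mean difference of -1.12 ± 0.14 (2.17-fold lower, adjusted p = 0.231). Khk, the ketohexokinase that traps fructose, was at 11.17 in LF-NP and 10.85 in HF-NP against 10.45 in LF-HP and 10.18 in HF-HP, and Tkfc, the triokinase that follows it, at 11.75 in LF-NP and 11.49 in HF-NP against 10.89 in LF-HP and 10.94 in HF-HP. The Khk difference, -0.70 ± 0.08 (adjusted p = 0.231), was thus nearly equal on both fat levels. Gpd2, the mitochondrial glycerol-3-phosphate dehydrogenase, had matched differences of -0.57 on LF and -0.67 on HF diets, and Pygl, the liver glycogen phosphorylase, -0.60 on LF and -0.73 on HF diets. Slc2a2, the GLUT2 glucose transporter, followed with -0.39 on LF and -0.45 on HF diets, just outside the size of 0.5. Of 25 genes of glycolysis and sugar entry measured, 12 were lower in both comparisons and 6 higher in both, and 5 passed the size, all of them lower. Over all genes measured, 21.3% were higher in both comparisons and 25.0% lower in both. The list median was only -0.02. Genes higher in both were Pfkfb2, Pfkfb3, Pdk2, Pgam1, Pgk1 and Tpi1, for example Pgk1 with 0.26 on LF and 0.20 on HF diets and Tpi1 with 0.04 on LF and 0.29 on HF diets. Of 41 genes of this list and of lipogenesis that have a promoter in the table, 2 hold the carbohydrate response element shown above, Pklr and Pfkfb2, and Pfkfb2 had higher values with 0.43 on LF and 0.34 on HF diets. The share over the whole table, 0.454%, is per promoter and not per gene.

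Fatty acid synthesis followed the same direction. Fasn, fatty acid synthase, was at 11.95 in LF-NP and 11.92 in HF-NP against 11.07 in LF-HP and 11.41 in HF-HP, and Acaca, acetyl-CoA carboxylase, at 10.26 in LF-NP and 10.00 in HF-NP against 9.65 in LF-HP and 9.65 in HF-HP. For Acly, ATP citrate lyase, the comparisons were of opposite sign, -0.71 on LF and 0.37 on HF diets. Srebf1, which encodes SREBP-1, was lower in both with -0.82 on LF and -0.40 on HF diets, as were Mlxipl, which encodes ChREBP, with -0.45 on LF and -0.56 on HF diets, and Elovl6 with -0.73 on LF and -0.43 on HF diets. Of 23 lipogenesis genes, 14 were lower in both and 2 higher in both, and the median was -0.24 on LF and -0.12 on HF diets, against 0 for all genes in either. Among the desaturases Scd1 had 0.05 on LF and -0.02 on HF diets, Scd2 0.10 on LF and 0.79 on HF diets and Fads1 0.06 on LF and 0.44 on HF diets. Bile acid and pericentral genes showed no common direction: 5 of 22 and 4 of 19 were higher in both, 6 and 6 lower in both. Cyp7a1, the first enzyme of bile acid synthesis, was at 11.97 in LF-NP and 11.89 in HF-NP against 12.19 in LF-HP and 11.68 in HF-HP, Cyp8b1 had -0.03 on LF and -0.50 on HF diets and Nr0b2, the repressor SHP, 0.20 on LF and -0.42 on HF diets. The pericentral genes Glul and Axin2 had 0.05 on LF and -0.24 on HF diets and 0.24 on LF and -0.34 on HF diets, whereas Lgr5, the R-spondin receptor of the same cells, was lower in both with -0.88 on LF and -0.66 on HF diets.

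Genes of amino acid breakdown were higher more often than not. Of 67 measured, 39 were higher in both comparisons and 8 lower in both, with a median of 0.21 on LF and 0.06 on HF diets. Tat, the tyrosine aminotransferase, was at 12.93 in LF-NP and 13.29 in HF-NP against 13.42 in LF-HP and 13.48 in HF-HP, and Tdo2, the first enzyme of tryptophan oxidation, at 12.27 in LF-NP and 12.50 in HF-NP against 12.72 in LF-HP and 12.60 in HF-HP. For both, the LF difference was larger, and the HF-NP pool was listed with exactly the value of the reference. Got1, the cytosolic aspartate aminotransferase, was at 12.11 in LF-NP and 11.96 in HF-NP against 12.91 in LF-HP and 12.91 in HF-HP, with 0.88 ± 0.22. Cth, which cleaves cystathionine to cysteine, was at 11.38 in LF-NP and 11.48 in HF-NP against 12.05 in LF-HP and 12.10 in HF-HP. Aldh1b1, a mitochondrial aldehyde dehydrogenase, was at 7.53 in LF-NP and 7.31 in HF-NP against 8.37 in LF-HP and 9.35 in HF-HP, and Etnppl, the ethanolamine-phosphate phospho-lyase, at 10.30 in LF-NP and 10.31 in HF-NP against 11.33 in LF-HP and 11.64 in HF-HP. Got1, Cth, Aldh1b1, Etnppl and Acmsd make up the 5 of the list that passed the size, and 0 passed it downwards. Csad, which makes taurine from cysteine, went the other way with -0.59 on LF and -0.48 on HF diets.

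In the urea cycle, 6 of 9 genes were higher in both and 0 lower in both, but the differences were small, with a median of 0.23 on LF and 0.06 on HF diets. Cps1, the entry enzyme, was at 13.24 in LF-NP and 13.32 in HF-NP against 13.48 in LF-HP and 13.46 in HF-HP, Otc had 0.51 on LF and -0.007 on HF diets and Asl 0.20 on LF and 0.08 on HF diets. Of 30 amino acid transporters, 16 were higher in both and 2 lower in both, with a median of 0.06 on LF and 0.23 on HF diets, and 4 passed the size. Slc7a2, the hepatic transporter of arginine and lysine, was at 11.13 in LF-NP and 11.25 in HF-NP against 12.16 in LF-HP and 12.23 in HF-HP. Slc1a4, which carries alanine, serine and cysteine, was at 6.12 in LF-NP and 6.51 in HF-NP against 7.52 in LF-HP and 7.56 in HF-HP, a mean difference of 1.23 ± 0.13 (adjusted p = 0.16). Slc38a2, the SNAT2 transporter that is inducible by amino acid scarcity, had 0.42 on LF and 0.43 on HF diets. Slc3a1 was at 9.04 in LF-NP and 9.13 in HF-NP against 9.66 in LF-HP and 10.06 in HF-HP, and Slc25a22, the mitochondrial glutamate carrier, at 8.87 in LF-NP and 9.14 in HF-NP against 9.50 in LF-HP and 9.71 in HF-HP. In both, the HP pools lay above the NP pools at each fat level.

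Of 17 genes of gluconeogenesis, 11 were higher in both and 3 lower in both. Pck1, phosphoenolpyruvate carboxykinase, was at 12.24 in LF-NP and 12.43 in HF-NP against 12.81 in LF-HP and 12.79 in HF-HP, and the reference pool, at 12.79, was at the level of the HP pools. Fbp1 had -0.09 on LF and 0.18 on HF diets, and Pcx, pyruvate carboxylase, was lower with -0.25 on LF and -0.20 on HF diets. Igfbp1, a gene held down by insulin, was at 9.04 in LF-NP and 8.51 in HF-NP against 9.51 in LF-HP and 9.13 in HF-HP with a standard error of 0.48 for a mean difference of 0.55. In the hormone list as a whole, 10 of 23 genes were lower in both and 5 higher in both, with 0.09 on LF and 0.02 on HF diets for Igf1 and -0.04 on LF and -0.05 on HF diets for Irs2.

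Mitochondrial genes had small differences of mostly 1 direction. Of 20 TCA cycle genes 15 were higher in both and 2 lower in both, and of 49 respiratory chain genes 32 and 0. The medians were 0.16 and 0.06 for the TCA cycle and 0.17 and 0.05 for the respiratory chain, on LF and HF diets. Idh2 was at 9.93 in LF-NP and 9.99 in HF-NP against 10.49 in LF-HP and 10.50 in HF-HP and Idh3a had 0.41 on LF and 0.42 on HF diets, while Cs, citrate synthase, was lower in both with -0.07 on LF and -0.12 on HF diets and Idh3b had 0.07 on LF and 0.06 on HF diets. Cox5a and Atp5a1 had 0.24 on LF and 0.15 on HF diets and 0.06 on LF and 0.12 on HF diets, and Ndufs1 of complex I had opposite signs with 0.08 on LF and -0.11 on HF diets. Sterol synthesis was higher in both for 16 of 21 genes and lower in both for 0, with the highest median of the mean difference among the 30 lists (0.22), from matched medians of 0.34 on LF and 0.21 on HF diets. Sqle, squalene epoxidase, was at 7.42 in LF-NP and 8.68 in HF-NP against 8.10 in LF-HP and 9.11 in HF-HP, so that HF-NP lay above LF-HP. The LF-NP pool was below the reference pool for this list, at a median of -0.21, and Hmgcs1 was at 8.50 in LF-NP and 8.93 in LF-HP with 9.04 in the reference pool. Hmgcs1 had 0.43 on LF and 0.005 on HF diets and Mvk 0.005 on LF and -0.03 on HF diets.

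For fatty acid oxidation and ketone bodies the fat levels differed, with a median of 0.19 on LF and -0.10 on HF diets. The LF-NP pool was below the reference pool of the same diet for this list too, at a median of -0.18. A low LF-NP pool and a higher LF-HP pool are therefore not told apart by the LF median. Cpt1a, the gate of mitochondrial fatty acid import, was at 12.02 in LF-NP and 11.83 in HF-NP against 11.83 in LF-HP and 11.70 in HF-HP, Cpt2 had 0.20 on LF and 0.007 on HF diets and Acadl 0.17 on LF and -0.18 on HF diets. Cd36, the fatty acid translocase, was at 8.16 in LF-NP and 9.03 in HF-NP against 10.01 in LF-HP and 9.81 in HF-HP, and Acot2, a mitochondrial thioesterase, at 8.75 in LF-NP and 9.59 in HF-NP against 9.92 in LF-HP and 10.44 in HF-HP. Both were higher on the HP diets at each fat level, and the LF-NP pool was the lowest of the 4. Of genes for lipid droplets and lipoproteins, 8 of 26 were higher in both and 9 lower in both. Plin2, the coat protein of hepatic lipid droplets, was at 11.31 in LF-NP and 11.53 in HF-NP against 11.13 in LF-HP and 11.34 in HF-HP, Cidec had -0.39 on LF and -0.18 on HF diets and Apob 0.01 on LF and -0.08 on HF diets. Lpl, lipoprotein lipase, was at 6.28 in LF-NP and 7.10 in HF-NP against 7.26 in LF-HP and 7.73 in HF-HP, and Mfsd2a, a transporter of lysophosphatidylcholine, at 10.45 in LF-NP and 10.77 in HF-NP against 11.24 in LF-HP and 11.84 in HF-HP.

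Among stress and defence genes, 24 of 39 glutathione and NRF2 genes were higher in both and 6 lower in both. Gstt3 was at 8.76 in LF-NP and 8.32 in HF-NP against 9.96 in LF-HP and 9.24 in HF-HP and Gstm2 at 8.65 in LF-NP and 8.32 in HF-NP against 9.33 in LF-HP and 8.87 in HF-HP, whereas the classical NRF2 targets Nqo1 and Gclc had 0.06 on LF and 0.52 on HF diets and -0.30 on LF and -0.14 on HF diets, and Gstm1 0.07 on LF and 0.53 on HF diets. Gpx6, a glutathione peroxidase, had 2.23 on LF and 0.71 on HF diets. Carboxylesterases, which hydrolyse esters, drugs and lipids, had lower values almost throughout: 13 of 14 were lower in both and 1, Ces1b, was higher in both. Ces2g was at 9.24 in LF-NP and 8.98 in HF-NP against 8.55 in LF-HP and 8.42 in HF-HP, Ces4a had -0.79 on LF and -0.53 on HF diets, Ces1d -0.05 on LF and -0.39 on HF diets, Ces1g -0.25 on LF and -0.56 on HF diets and Ces2a -0.23 on LF and -0.65 on HF diets. These genes are close copies of each other and probes may share signal, so that they are not 14 separate observations. Cytochrome P450 genes had no common direction, with 9 of 38 higher in both and 10 lower in both. Cyp3a11 had -0.45 on LF and -0.24 on HF diets and Cyp2e1 0.08 on LF and -0.10 on HF diets. Cyp39a1, an oxysterol 7-alpha-hydroxylase, was at 8.48 in LF-NP and 8.02 in HF-NP against 9.37 in LF-HP and 9.48 in HF-HP, and Cyp2d40 at 8.85 in LF-NP and 8.46 in HF-NP against 7.66 in LF-HP and 7.75 in HF-HP, the former higher and the latter lower on HP diets at each fat level.

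Interferon-responsive genes had lower values on HP diets, 23 of 31 in both comparisons and 1 higher in both, with medians of -0.32 on LF and -0.17 on HF diets. Mx2 was at 5.51 in LF-NP and 5.76 in HF-NP against 4.55 in LF-HP and 4.90 in HF-HP, Ifit1 at 7.37 in LF-NP and 7.37 in HF-NP against 6.82 in LF-HP and 7.20 in HF-HP, and Irf7 and Ifit2 had -0.13 on LF and -0.33 on HF diets and -0.04 on LF and -0.04 on HF diets. Kupffer cell markers, whose share in this was not tested, had medians of -0.45 on LF and 0.37 on HF diets. For antigen presentation the direction held on LF diets, with a median of -0.28, and not on HF diets with -0.01. H2-Ab1, H2-Aa and Cd74 of MHC class II were lower on LF-HP, with -0.54, -0.32 and -0.55, and on HF-HP had 0.12, 0.14 and -0.10. Complement and coagulation genes, which hepatocytes make for the plasma, were lower in both for 24 of 33 and higher in both for 1, at a median of -0.11. F7, coagulation factor VII, was at 10.07 in LF-NP and 9.90 in HF-NP against 9.73 in LF-HP and 9.51 in HF-HP, Serpinc1 had -0.004 on LF and -0.12 on HF diets and C1ra -0.03 on LF and -0.43 on HF diets. Of 19 serpins, 10 were lower in both and 2 higher in both, Serpina3n with -0.05 on LF and -0.13 on HF diets. Acute phase genes as a list had 12 of 24 higher in both and 4 lower in both. Saa1 had -0.10 on LF and 0.89 on HF diets, Hp 0.16 on LF and 0.01 on HF diets and Orm1 0.23 on LF and 0.06 on HF diets, so that the main acute phase proteins did not share the size of the Orm2 and Lcn2 differences.

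Genes of the clock and of rapid responses were also set side by side, since the mice were killed at 1 time after a meal. Noct, the nocturnin gene, was at 8.33 in LF-NP and 8.75 in HF-NP against 9.53 in LF-HP and 9.68 in HF-HP and Ciart, a repressor of the clock, at 7.42 in LF-NP and 8.16 in HF-NP against 9.23 in LF-HP and 8.95 in HF-HP. Of the core clock genes, Per1 was higher in both with 0.57 on LF and 0.38 on HF diets, while Arntl had 0.14 on LF and -0.39 on HF diets and Dbp 0 on LF and 0.24 on HF diets, and 4 of 18 clock genes were higher in both and 6 lower in both. Of 22 immediate early genes, 10 were higher in both and 3 lower in both. Atf3 was at 5.69 in LF-NP and 5.82 in HF-NP against 6.35 in LF-HP and 6.52 in HF-HP and Btg2 at 6.78 in LF-NP and 6.68 in HF-NP against 7.42 in LF-HP and 7.89 in HF-HP, while Klf10, a glucose-responsive factor, was at 7.79 in LF-NP and 7.91 in HF-NP against 7.10 in LF-HP and 7.14 in HF-HP and Egr1 had -0.95 on LF and -0.16 on HF diets. Fos was low in all pools, at 4.62 to 4.92. Among further lists, Gnmt, the glycine N-methyltransferase, had 0.39 on LF and 0.21 on HF diets, Nampt 0 on LF and -0.002 on HF diets and Aox3 -0.56 on LF and -0.55 on HF diets. In the same NAD and methyl group list 8 of 19 were higher in both and 5 lower in both. Protein folding and proteasome genes showed medians of -0.01 and -0.03, with 0.11 on LF and -0.22 on HF diets for Hspa5, 0.03 on LF and -0.05 on HF diets for Hspa8, -0.07 on LF and -0.02 on HF diets for Hsp90aa1, 0.12 on LF and 0.01 on HF diets for Psma1, -0.20 on LF and 0.18 on HF diets for Psmb5 and -0.11 on LF and -0.06 on HF diets for Psmd1. In purine synthesis and the pentose phosphate path 11 of 29 were lower in both and 5 higher in both, although Ppat, its first enzyme, was at 7.36 in LF-NP and 7.44 in HF-NP against 8.13 in LF-HP and 8.21 in HF-HP, with Paics at 0.25 on LF and 0.36 on HF diets and Gart at -0.10 on LF and -0.004 on HF diets.

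**Figure D3:**
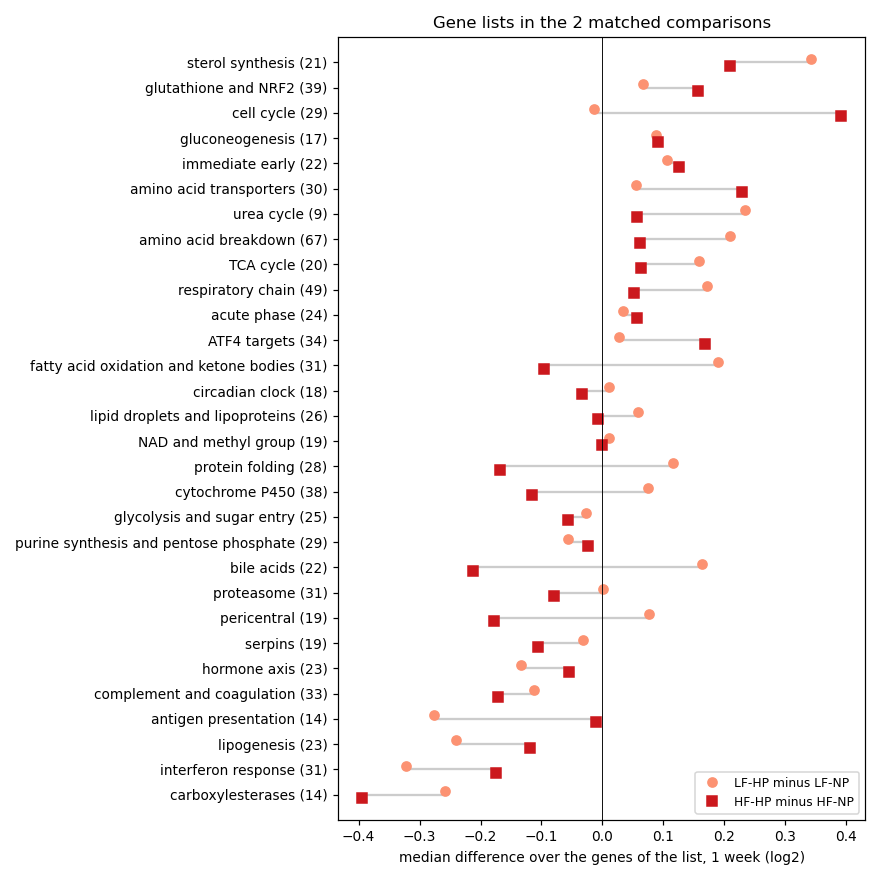
Median difference (log2, x axis) at 1 week over the genes of 30 lists, with the number of genes measured in brackets; circles are LF-HP minus LF-NP, squares HF-HP minus HF-NP. For 20 lists both medians have the same sign; the lists are ordered by the median of the mean difference, from -0.32 for carboxylesterases to 0.22 for sterol synthesis, and the cell cycle list has 0.39 on HF and -0.01 on LF diets.

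The difference between the fat levels was largest for a small number of genes. With a term for HP by fat at 1 week, which was added to the limma model after the data were seen, 0 of 19938 genes (0%) had an adjusted p under 0.05. There were 672 genes at an unadjusted p under 0.05, and the lowest adjusted p was 0.363, for Myc and Foxq1. In this fit the 672 are a smaller share of the 19938 genes than the 0.05 that such a threshold passes on average where no gene differs. The term takes the effect of fat from both weeks, so that its estimates, 3.01 ± 0.22 for Myc and 2.57 ± 0.74 for Asns, differ somewhat from the plain gaps. Asns was at 5.89 in LF-NP and 5.71 in HF-NP against 5.99 in LF-HP and 8.78 in HF-HP, so that 1 pool alone, HF-HP, was high and the difference on HF was 2.97 above that on LF diets. The reference pool was at 5.71. Of the ATF4 list, 15 of 34 were higher in both and 2 lower in both, with a median of 0.03 on LF and 0.17 on HF diets. Slc7a11, the cystine transporter, was at 3.38 in LF-NP and 3.27 in HF-NP against 3.41 in LF-HP and 4.52 in HF-HP, again with HF-HP alone above the others. Its values were low, below the array medians of 5.47 to 5.49 in every pool. Psat1, Slc7a1, Nupr1 and Mthfd2, chosen like Slc7a11 after their values were seen, had 0.70, 0.65, 0.58 and 0.53 on HF diets and -0.05, -0.22, 0.07 and 0.03 on LF diets. Among other targets, Trib3 had 0.13 on LF and 0 on HF diets, Atf5 -0.09 on LF and 0.26 on HF diets and Ddit4 0.90 on LF and 0.37 on HF diets. Of the 29 genes of that list with a promoter in the table, 10 hold the C/EBP-ATF element shown for Asns, among them Atf3, Chac1 and Slc7a11. This counts genes with a match at any start, whereas the share over the whole table, 3.45%, is per promoter. The list was also made of ATF4 targets. Myc, a growth-related transcription factor, was at 8.01 in LF-NP and 6.42 in HF-NP against 6.70 in LF-HP and 8.26 in HF-HP, with LF-NP and HF-HP high and the other two low. The same crossed order was found for Cish, a STAT5 target that dampens growth hormone signals (8.08 in LF-NP and 6.42 in HF-NP against 7.04 in LF-HP and 7.75 in HF-HP), Foxq1, a forkhead factor (8.49 in LF-NP and 7.09 in HF-NP against 7.03 in LF-HP and 7.89 in HF-HP), and Apoa4, a lipoprotein component (12.70 in LF-NP and 11.65 in HF-NP against 11.20 in LF-HP and 12.44 in HF-HP). In these 4 genes the reference pool was at 8.44, 7.71, 8.20 and 12.45, above both HF-NP and LF-HP. Socs2, another STAT5 target and chosen after its values were seen, had -0.83 on LF and 0.67 on HF diets.

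Cell cycle genes as a list had a median of -0.01 on LF and 0.39 on HF diets, and 11 of 29 were higher in both. Ccnd1, cyclin D1, was at 8.74 in LF-NP and 8.68 in HF-NP against 8.25 in LF-HP and 9.50 in HF-HP, Mki67 at 5.26 in LF-NP and 5.34 in HF-NP against 5.31 in LF-HP and 5.79 in HF-HP and Top2a at 4.45 in LF-NP and 4.03 in HF-NP against 4.42 in LF-HP and 4.70 in HF-HP. The array medians were 5.47 to 5.49, so that Top2a lay below and Mki67 near the median of all genes. Kupffer cell markers were also higher on HF-HP and lower on LF-HP, as given above, and their part in these differences was not tested.

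The opposite pattern, a difference on LF diets mainly, was seen for genes of fatty acid and drug oxidation among others. Cyp4a31, a fatty acid omega-hydroxylase, was at 10.23 in LF-NP and 11.99 in HF-NP against 12.38 in LF-HP and 12.10 in HF-HP, with 11.92 in the reference pool. Here LF-NP was the pool that stood apart. Cyp4a14, Cyp4a10 and Ehhadh, targets of PPARalpha in the oxidation list and chosen after their values were seen, also had the larger difference on LF diets. They had 1.52 on LF and 0.11 on HF diets, 1.02 on LF and 0.11 on HF diets and 1.24 on LF and 0.08 on HF diets. Other members of that list did not share this, as Cpt1a was lower in both comparisons and Cd36 and Acot2 were higher in both. Cyp2b10, the standard target of the xenobiotic receptor CAR, was at 5.10 in LF-NP and 6.43 in HF-NP against 8.12 in LF-HP and 7.45 in HF-HP, and Cyp2b9 at 7.47 in LF-NP and 7.78 in HF-NP against 8.89 in LF-HP and 8.66 in HF-HP. Both were higher on HP at each fat level, and Cyp2b10 had 2.02 ± 0.42 (adjusted p = 0.442). Cyp2a22 was at 6.28 in LF-NP and 7.23 in HF-NP against 8.40 in LF-HP and 7.40 in HF-HP, and Nipal1, a magnesium transporter, at 5.28 in LF-NP and 6.24 in HF-NP against 7.70 in LF-HP and 6.90 in HF-HP. Slc8a1, a sodium-calcium exchanger, had 1.25 on LF and -0.53 on HF diets, but another probe set of it had 0 and 0.03, so that the difference was seen by 1 of 2 probe sets.

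**Figure D4:**
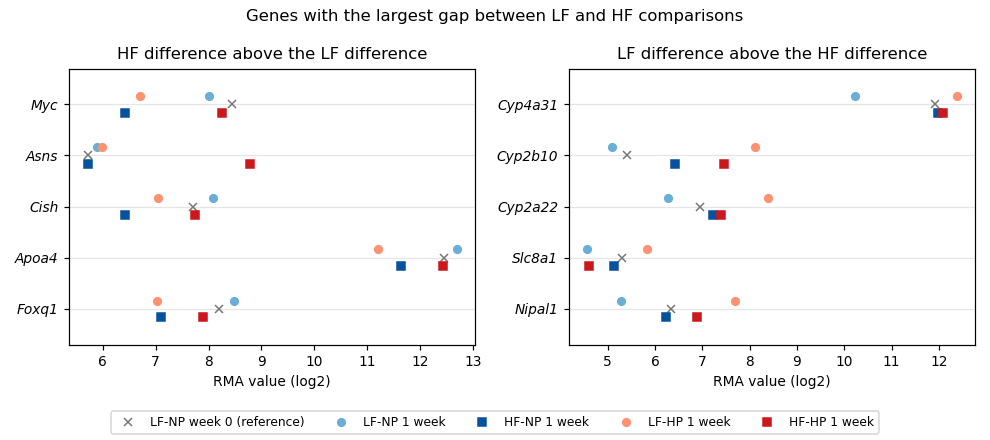
RMA values (log2, x axis) of the 5 genes with the largest gap between the matched comparisons in each direction, 1 point per pool of 1 week and a cross for the reference pool. Asns is high in HF-HP alone, Myc, Cish, Apoa4 and Foxq1 are low in LF-HP and HF-NP, and Cyp4a31 and Nipal1 are lowest in LF-NP.

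Finally, the differences of 1 week were set beside those of the 4 pools fed for 12 weeks, to see which recurred. In limma, 0 of 19938 genes (0%) had an adjusted p under 0.05 for the difference between weeks, 523 had an unadjusted p under 0.05, and the lowest adjusted p was 1. Here too, the 523 are a smaller share of all genes than the 0.05 that such a threshold passes on average where no gene differs. Of the 69 genes with higher values at 1 week, 28 also reached 0.5 in both comparisons of 12 weeks, which is 40.6% of the 69 and 37.8% of the 74 genes that did so at 12 weeks. A positive sign in both was kept by 56, and 2 were negative in both. Of the 56 genes with lower values, 24 reached -0.5 in both at 12 weeks, 42.9% of the 56 and 32.9% of 73, and 52 were negative in both and 0 positive in both. The 74 and 73 are counts out of all 19938 genes. Over all genes, 21.3% were higher in both comparisons of 1 week and 25.0% lower in both. The same shares were not counted at 12 weeks. The median difference of the 69 was 0.93 at 1 week and 0.76 at 12 weeks, and of the 56, -0.73 and -0.57. These genes were selected at 1 week, so that the weeks are not compared by these medians. Across all genes the mean differences of the weeks correlated at 0.449.

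The genes with the smallest p for the difference between weeks were Acnat2, Slc1a4, Pdrg1, Fgl1, Cdc26 and Sap18, with unadjusted p-values from 0.00037 to 0.00185 by limma and adjusted p-values of 1. Acnat2, an acyl-CoA amino acid N-acyltransferase, was at 7.50 in LF-NP and 7.42 in HF-NP against 8.80 in LF-HP and 8.15 in HF-HP at 1 week, and at 12 weeks at 8.17 and 8.02 in the NP and 7.53 and 7.58 in the HP pools. The sign thus differed between weeks in both fat levels, with -1.55 ± 0.23 (SE) for 12 weeks minus 1 week. Slc1a4 had differences of 0.13 and 0.24 at 12 weeks, against 1.41 and 1.06 at 1 week. Fgl1, a liver-secreted fibrinogen-like protein, had 0.39 on LF and 0.30 on HF diets at first but -0.52 and -0.35 after 12 weeks. Pdrg1, Cdc26, a subunit of the anaphase-promoting complex, and Sap18, of the Sin3 complex, had small negative differences at 1 week, -0.38, -0.42 and -0.30 on average, and positive ones at 12 weeks in both fat levels.

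Of the 24 genes named by size, the metal-binding genes and Lcn2 had a difference of 1 week that was not seen again. Lcn2 had -0.32 and -1.67 at 12 weeks, Mt1 -0.04 and 0.24, and Mt2 -0.46 and 0.43. Orm2 kept a difference on LF (1.59) and had 0.23 on HF diets, where the NP pool had reached 9.52. Cyp17a1 had opposite signs with -0.75 and 1.10. On the other side, Nnmt had 1.25 and 1.32, Gask1a -1.70 and -1.58, Acmsd 1.57 and 2.69, and Slc17a8 -1.89 and -2.56. All of these passed 0.5 in their direction in both fat levels at both times. Rgs16 was lower by more at 12 weeks (-2.26 and -2.47), while Pklr, at -0.66 and -0.60, was lower by less. Asns again had its high value in HF-HP alone at 12 weeks, 7.21 against 5.21 to 5.85 in the others, whereas Myc had -0.26 and 0.16.

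**Figure D5:**
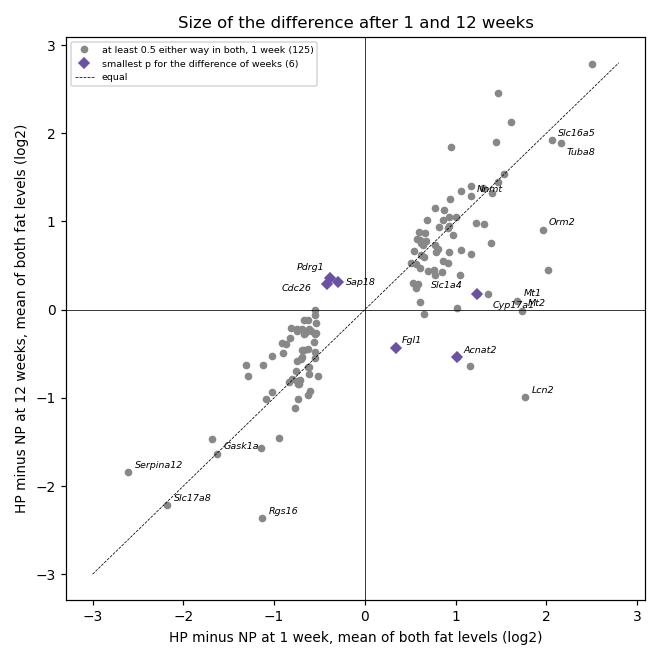
HP minus NP difference (log2, mean of both fat levels) at 1 week on the x axis and at 12 weeks on the y axis for the 125 genes past the size at 1 week, with the dashed line of equal differences. Purple diamonds are the 6 genes with the smallest p for the difference of weeks; Lcn2, Mt1 and Mt2 lie near or below 0 on the y axis and above 1.6 on the x axis.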

How the data were processed

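Liver RNA of 5 mice per diet and week was pooled and hybridised to Affymetrix Mouse Gene 1.0 ST arrays, 9 pools in all. The authors made the deposited values with RMA, per the labels, so they are background-corrected and quantile normalised log2 values per probe set, from 1.41 to 14.46. Quantile normalisation sets all arrays to 1 distribution, which removes a shift common to most genes. Of the 19938 genes, 62.2% had exactly equal values in 2 or more of the 9 pools, which the median polish step of RMA can give, and such ties lower the spread that a fit sees. Neither counts nor scanner files were used here, and 0 columns belonged to other samples.

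Of 35556 probe sets, 21789 had 1 gene symbol in the platform annotation, 1621 several and 12146 none; only the first were used. Symbols were updated through Entrez IDs for 19856 of 19938 genes, and 999 genes had more than 1 probe set, of which the brightest on average stood for the gene. The sizes and matched differences are plain differences of pools. Tests were made with limma 3.58.1 in R 4.3.3 over the 8 diet pools with terms for week, fat and the HP difference at each week, which leaves 3 residual degrees of freedom and a prior of 3.65, with Benjamini-Hochberg adjustment over all genes and a threshold of 0.05. Such p-values measure the spread between pools of different diets, not between mice. A term for HP by fat at 1 week, added after the data were seen, leaves 2. The fits were tested on simulated data.

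Members, the 30 gene lists (888 entries, 84 without a value) and the size of 0.5 were chosen with earlier results of these data known. Genes named are the 12 in each direction with the largest smaller matched difference, the 6 with the smallest p between weeks, the 5 in each direction with the largest gap between fat levels, and the first 3 measured members of a list; predicted genes and pseudogenes were not named by size, and other genes were chosen after their values were seen. Alternatives were a term for week by fat, no fat term, a filter on the level, an intensity trend, array weights, centred arrays, means of probe sets, 1 week pools alone, another threshold and leaving out each pool. Motifs were searched in the RefSeq promoter table. Python 3.11.15, pandas 2.3.3 and matplotlib 3.10.9 made tables and figures.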

Additional observations from a re-analysis of the deposited data

Results flagged for a closer look

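Genes among those named whose matched differences of 1 week had 1 sign in both fat levels and the opposite sign in both at 12 weeks were Lcn2, with a difference of -2.77 for 12 weeks minus 1 week, Acnat2 with -1.55, Fgl1 with -0.78, Pdrg1 with 0.74, Cdc26 with 0.71 and Sap18 with 0.62. The limma test of that difference gave an unadjusted p of 0.0163 for Lcn2 and an adjusted p of 1 for all 6.

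Opposite signs of the LF and HF matched differences at 1 week were found for Myc, where HF minus LF was 3.14, Cish with 2.38, Apoa4 with 2.28, Foxq1 with 2.26 and Slc8a1 with -1.78. The limma term for HP by fat at 1 week gave adjusted p-values of 0.363 for Myc and Foxq1 and 1 for the other 3.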

How the results depend on the processing

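The count of genes past the test at 1 week was 0 and became 5 with genes above the median level only (Gask1a, Serpina12, Trim7, Nnmt and Slc1a4), 4 with array weights (the same without Slc1a4) and 2 with centred arrays (Gask1a and Serpina12). It ranged from 0 to 1 when a pool was left out, the 1 being Orm2 without the LF-NP or the HF-NP pool of 12 weeks. It was 0 in the fit with week by fat as a term (replicate block), which left 890 genes at an unadjusted p under 0.05. The 1110 genes at an unadjusted p under 0.05 were 1858 with array weights and 715 to 1384 with a pool left out, 715 without HF-NP of 1 week. For the difference between weeks, leaving out a pool gave 0 to 1 genes (Dmbt1, without HF-NP of 12 weeks) and 373 to 1915 at an unadjusted p under 0.05 in place of 523, 1915 without LF-HP, 874 without LF-NP and 859 without HF-HP of 12 weeks; the filter on the level gave 258. With a size of 1, added after seeing the data, 16 genes had higher and 5 lower values in both matched comparisons in place of 69 and 56; centring, the mean of probe sets and the filter gave 61 to 70 and 52 to 61. Against the reference pool in place of the NP pools, Orm2 had -0.11 and Fgl1 -0.19, the sign turned. The cell cycle median of 0.19 was -0.014 on LF diets alone. For HP by fat at 1 week, added after seeing the data, the 0 genes became 4 with array weights (Myc, Foxq1, Phlda1 and Sult1e1), and the 672 at an unadjusted p under 0.05 became 3107 with array weights, 385 with the filter, 229 with week by fat as a term and 600 to 1084 without a pool of 12 weeks, 1084 without LF-HP or HF-HP; a pool of 1 week cannot be left out of it. None of the 479 other values of the 30 genes named by size or by week turned sign. Most of them could not, since in this balanced design most settings leave the estimate at 1 week unchanged. Centring shifts it only slightly, and mainly leaving out a pool of 1 week moves it. For 5 of the 24 named by size, leaving out 1 pool of 1 week moved the difference by more than 1.5 times: Mt2 (1.73) was 0.84 without LF-HP, 1.05 without HF-NP and 2.62 without HF-HP, Mt1 (1.68) 0.96 and Inhba (-1.68) -1.05 without LF-HP, Lcn2 (1.77) 1.11 without LF-HP and 1.10 without HF-NP, and Rgs16 (-1.13) -0.64 without HF-HP. With 1 array per diet and week, the number of arrays limits the precision, and probe sets near the low end, such as Top2a, more so. The causes were not tested.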

Other observations

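Some further genes past the size in both comparisons, chosen after their values were seen, belong to hormone and growth factor signalling. Nrg4, a growth factor of the EGF family, was at 7.96 in LF-NP and 7.66 in HF-NP against 8.59 in LF-HP and 8.60 in HF-HP, and Hamp2, a hepcidin gene, at 6.43 in LF-NP and 6.58 in HF-NP against 7.06 in LF-HP and 7.65 in HF-HP. Esr1, the oestrogen receptor alpha, was at 8.62 in LF-NP and 8.55 in HF-NP against 8.07 in LF-HP and 8.04 in HF-HP, and Trim7, a ubiquitin ligase that binds glycogenin, at 7.33 in LF-NP and 7.18 in HF-NP against 6.52 in LF-HP and 6.34 in HF-HP. The mean differences were 0.79 ± 0.23, 0.86 ± 0.18, -0.53 ± 0.09 and -0.83 ± 0.08 (SE), and Trim7 had -0.35 on LF and -0.29 on HF diets at 12 weeks. Akr1c18, a steroid reductase, was at 4.13 in LF-NP and 4.45 in HF-NP against 4.83 in LF-HP and 4.97 in HF-HP, and Nt5e, the ecto-5'-nucleotidase, at 6.32 in LF-NP and 6.68 in HF-NP against 7.47 in LF-HP and 7.24 in HF-HP. None of the 6 passed the test in limma, with adjusted p-values of 0.16 for Trim7, 0.307 for Esr1, 0.446 for Hamp2, 0.671 for Nrg4, 0.502 for Nt5e and 0.257 for Akr1c18.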
